A study of Mus musculus with 16 samples.

Results

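The proteasome of sorted mouse microglia was followed through 40 genes, which were taken as a named list of its subunits and activators. The list holds 14 genes of the standard 20S core (Psma1 to Psma7 and Psmb1 to Psmb7), the 3 immune catalytic subunits Psmb8, Psmb9 and Psmb10, and 19 genes of the 19S regulator (Psmc1 to Psmc6, 12 Psmd genes with the assembly factor Psmd5 among them, and Adrm1). The 4 activator genes Psme1 to Psme4 complete it. All 40 were found among the 53850 genes of the deposited table, and all 40 passed the filter on low values (10 or more in 4 or more libraries) that left 19594 genes to test. Their means over all libraries lay between 1124 and 6898 normalised read counts, so no member was near the filter.

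The study sorted microglia from the cortex of male and female C57BL/6J mice fed for 1 week with control chow or with chow containing PLX3397, an inhibitor of the CSF1 receptor on which microglia depend for survival. The 4 groups (males on control chow, males on PLX3397, females on control chow, females on PLX3397) hold 4 libraries each, and no genotype other than the strain, no transgene and no second agent is named for any of them. The mice are called young, with no age given, and the gate of the sort is not given in the sources used here. The series' design text states the question as why depletion by PLX3397 differed between the sexes, and the libraries on PLX3397 hold the cells that could still be sorted after 1 week. Nothing in the labels says that the 4 samples of a group are separate animals, and the p-values measure the spread between these samples, which may be technical.

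The 26S proteasome is the protease that removes proteins tagged with ubiquitin. Its 20S core is a barrel of alpha rings, which form the gate, and beta rings, which hold the cutting sites of Psmb5, Psmb6 and Psmb7. The 19S regulator caps the barrel: its base holds the ATPases Psmc1 to Psmc6, which unfold the substrate and open the gate, and its lid holds the deubiquitinase Psmd14, which takes the ubiquitin off. Cells under interferon can build a core with Psmb8, Psmb9 and Psmb10 in place of the standard catalytic subunits, and Psme1 with Psme2 forms a cap that needs no ATP. Both are known for their part in making peptides for class I antigen presentation, which microglia as the immune cells of the brain carry out.

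Library totals of the deposited normalised counts ranged from 32640000 to 44160000. The labels of sex held in all 16 libraries: Ddx3y, a Y-linked gene, read 2589 to 3307 in males and 2.5 to 18.0 in females, although 1 male control library (replicate 4) held Xist at 515.7 against 14.7 to 31.4 in the other males and 5542 to 10450 in females. Summed markers of microglia lay between 2358000 and 2538000 in male controls and between 1031000 and 1480000 in males on PLX3397, with 10 of 10 markers lower. In females they read 2237000 to 2747000 and 1660000 to 1903000, with 8 of 10 lower. Summed neutrophil markers read 36470 to 37620 and 49620 to 115100 in males (9 of 12 higher) and 29160 to 34170 and 24320 to 35630 in females (6 of 12 higher). Most of that sum was Csf3r, except in replicate 3 of the males on PLX3397, where 75100 of 115100 came from the other markers. Without Csf3r the ranges were 531 to 3668 and 10700 to 75100 in males, and 203 to 271 and 1046 to 3485 in females. Mitochondrial genes took 0.312% ± 0.0153 (SD, n = 4) of the total in male controls and 0.625% ± 0.0387 in males on PLX3397, and 0.307% ± 0.0361 and 0.395% ± 0.0449 in females. The neutrophil gene Ly6g was at 0 in every control library, and 1 library of males on PLX3397 (replicate 3) stood apart with S100a8 at 14420. Monocyte markers summed to 453 to 729 in male controls and 1018 to 6572 in males on PLX3397 (1 of 6 tested higher), and to 523 to 674 and 457 to 1048 in females. Markers of border-associated macrophages went from 2105 to 3365 down to 787 to 1152 in males (6 of 10 lower) and from 1854 to 3862 down to 1067 to 1702 in females (4 of 10 lower). Markers of neurons, astrocytes and oligodendrocytes summed to 1445 to 2321 and then 3371 to 4514 in males (1 of 11 higher), and to 1436 to 2132 and then 2615 to 3383 in females (2 of 11 higher). Endothelial and pericyte markers summed to 1309 to 1768 and 856 to 1503 in males (2 of 4 lower) and to 1459 to 1942 and 1009 to 1383 in females (1 of 4 lower), and none of 4 lymphocyte markers passed. In bulk samples, fewer cells of a type and less RNA per cell cannot be told apart, and the part of these markers in the results on the proteasome was not tested.

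In males on PLX3397, 9 of the 40 proteasome genes fell against male controls and none rose. All 9 belong to the 19S regulator: the ATPases Psmc1, Psmc2 and Psmc5, the base subunits Psmd1 and Adrm1, and the lid subunits Psmd3, Psmd7, Psmd11 and Psmd14. None of the 14 standard core genes, the 3 immune subunits and the 4 activators passed the test in either direction. The decreases were modest, from 0.43 to 0.68 on the log2 scale of the value plus a pseudocount of 1. Over all genes tested, 7.52% were called lower and 4.16% higher (limma, adjusted p under 0.05 by Benjamini-Hochberg over all 19594 genes). Among the 5304 genes whose means lay in the range of the members, 13.7% were called lower and 5.2% higher, and the members' share of 22.5% is to be read against that. The median change of the 40 members was -0.29, beside 0.02 for all genes tested and -0.12 for the genes in the members' range, and 34 of the 40 changes were negative. At an unadjusted p under 0.05 there were 22 members (55.0%), beside 23.8% of all genes.

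**Figure D1:**
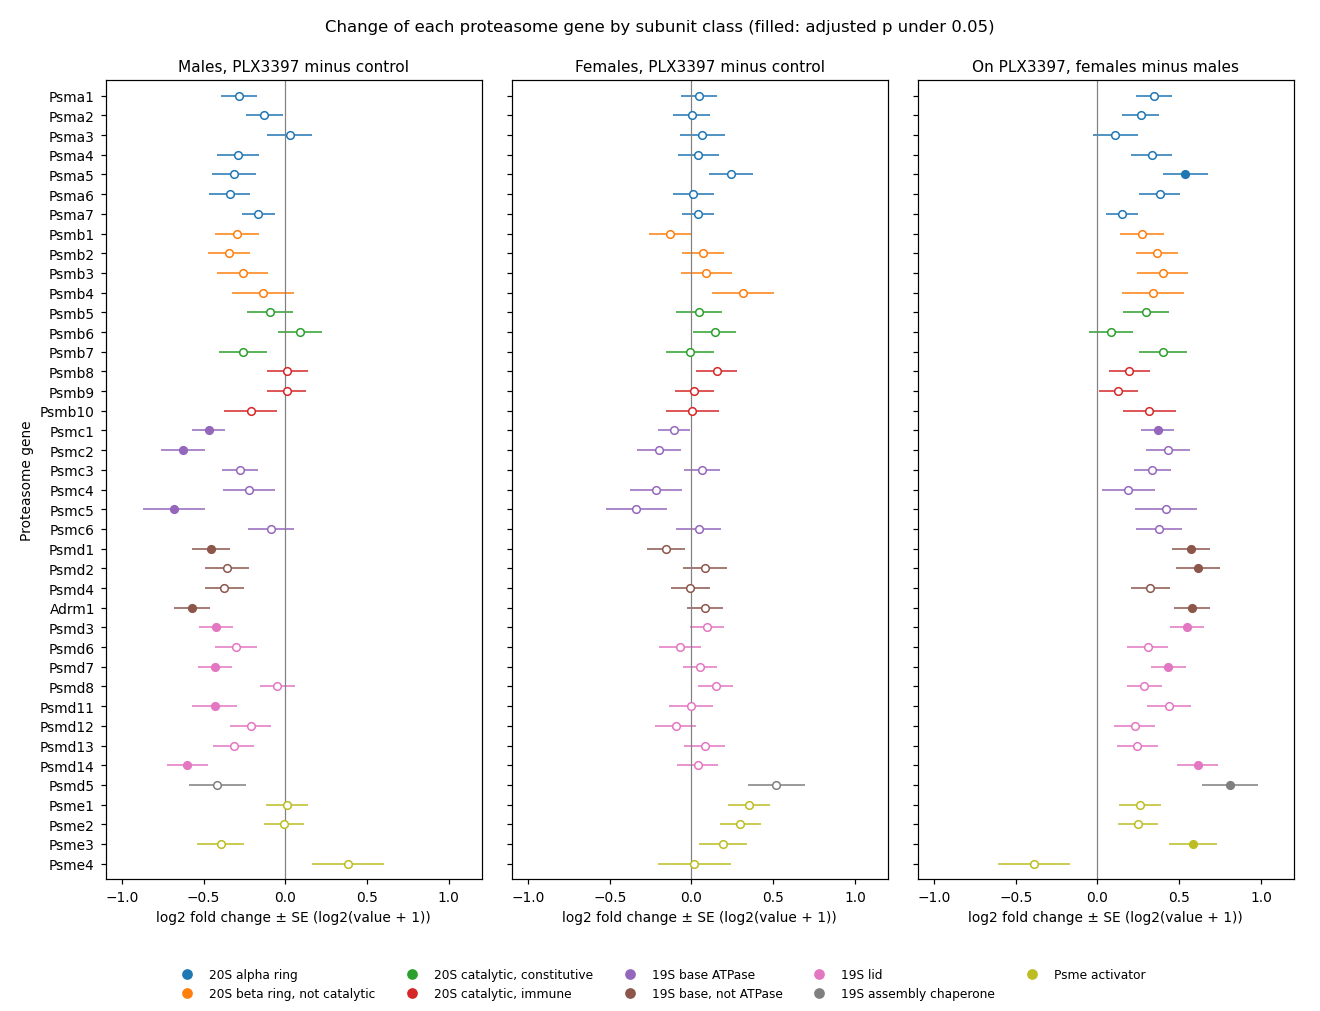
Log2 difference with its SE for each of the 40 proteasome genes, coloured by place in the complex and filled where called, in 3 panels: PLX3397 minus control in males, the same in females, and females minus males on PLX3397. The 9 genes called in males are all in the 19S regulator, none is called in females, and 10 are higher in females on PLX3397.

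Adrm1, the ubiquitin receptor of the 19S base, had the smallest p of the members in the male comparison. It read 6117, 5653, 5724 and 6471 normalised counts in male controls and 4144, 3757, 3961 and 4231 in males on PLX3397. Every treated male library lay below every male control library, and the difference was -0.57 ± 0.111 (SE, n = 4 against 4, limma adjusted p = 0.00232). In females it read 5978, 4414, 6730 and 5799 on control chow and 5777, 6329, 6296 and 5610 on PLX3397. These groups overlapped (0.08 ± 0.111, adjusted p = 0.794).

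Psmd14, the deubiquitinase of the lid, read 2258, 1797, 2040 and 2116 in male controls and 1076, 1453, 1623 and 1306 in males on PLX3397. The male groups did not overlap, and the difference was -0.60 ± 0.125 (limma adjusted p = 0.00401). In females Psmd14 read 1976, 2080, 1955 and 2031 on control chow and 2058, 2306, 1973 and 1942 on PLX3397, with overlapping groups and a difference of 0.04.

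Among the ATPases, Psmc1 was the tightest member: its SD over the mean within groups averaged 7.30%, against a median of 11.1% over the members. It read 4864, 4876, 4837 and 5016 in male controls and 3688, 3312, 3248 and 3950 in males on PLX3397. The groups were separate (-0.47 ± 0.0995, limma adjusted p = 0.0047). In females it read 5771, 4256, 5127 and 4649 on control chow and 4877, 4318, 4578 and 4505 on PLX3397, with the treated values inside the range of the controls.

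Psmc2, another ATPase, read 6761, 5306, 6405 and 5700 in male controls and 4044, 3179, 3890 and 4605 in males on PLX3397. These groups did not overlap (-0.63 ± 0.134, limma adjusted p = 0.00499). In females Psmc2 read 6694, 4814, 6709 and 6131 on control chow and 5205, 4682, 6087 and 5172 on PLX3397, a difference of -0.20 with overlapping groups. Psmc5 had the largest decrease of the 9 in males and a wide error (-0.68 ± 0.189, adjusted p = 0.0256), from 3825 to 5003 in controls and from 2196 to 3768 on PLX3397. The other ATPases did not pass: Psmc3 differed by -0.28, Psmc4 by -0.22 and Psmc6 by -0.09. Of the 6 ATPases, 3 thus fell, and their median change in males was -0.37.

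Psmd1, the large scaffold of the base, read 3560, 4100, 3315 and 4070 in male controls and 3070, 2579, 2494 and 2818 in males on PLX3397, with separate groups (-0.46 ± 0.115, limma adjusted p = 0.015). Its female values were 5177, 3882, 4452 and 4680 on control chow and 4606, 3623, 4037 and 4056 on PLX3397, which overlap. Psmd2, the partner scaffold and a docking site for ubiquitin shuttles, read 6398, 6806, 6203 and 6417 in male controls and 5165, 4043, 4907 and 6234 in males on PLX3397. The last treated library reached the controls, and Psmd2 did not pass (-0.36, adjusted p = 0.103). The remaining base subunit, the ubiquitin receptor Psmd4, narrowly missed the threshold with a difference of -0.37 (adjusted p = 0.055).

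Of the 8 lid genes, 4 fell in males. Psmd3, a structural subunit, read 5839, 6551, 5284 and 5321 in male controls and 4844, 3989, 4074 and 4204 on PLX3397. Psmd7, the inactive partner of Psmd14, read 3701, 3554, 4113 and 3560 in male controls and 2452, 2912, 2777 and 2942 on PLX3397. In both genes every treated male library was below every control, with differences of -0.43 ± 0.104 (Psmd3, limma adjusted p = 0.0126) and -0.43 ± 0.105 (Psmd7, adjusted p = 0.0118). Psmd11, a lid subunit, was at the threshold: its groups overlapped (4254 to 5684 on control chow, 3058 to 4817 on PLX3397), its adjusted p was 0.0498, and it was called under 9 of the 28 alternative settings. The other lid genes Psmd6, Psmd8, Psmd12 and Psmd13 had differences of -0.30, -0.05, -0.21 and -0.32 and none passed.

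**Figure D2:**
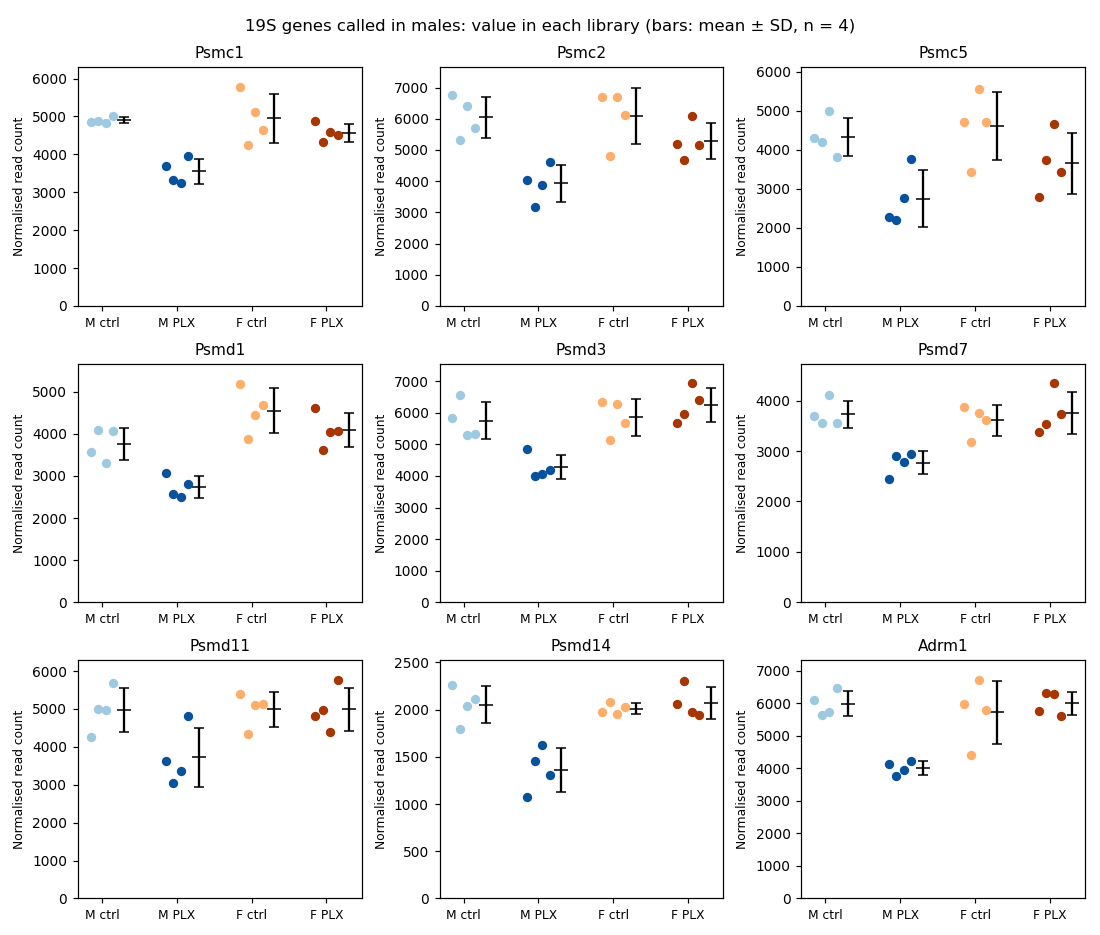
Normalised read count of the 9 proteasome genes called in males, in every library of the 4 groups, with the mean and SD (n = 4) beside the points; each axis starts at 0. In Psmc1, Psmc2, Psmc5, Psmd1, Psmd3, Psmd7, Psmd14 and Adrm1 the 4 treated male libraries lie below all male controls by the values in the text, and the female groups overlap.

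Shares and quotients taken within a library do not depend on the factor that scales it. A share of the total, however, amounts to setting library totals equal. The 19 genes of the 19S regulator summed to 0.198% to 0.209% of a library's total in male controls and to 0.166% to 0.183% in males on PLX3397, so the male groups did not overlap. The 14 standard core genes summed to 0.125% to 0.142% and 0.117% to 0.144%, which overlap. Divided within each library, the 19S sum was 1.57 ± 0.0775 times the core sum in male controls (SD, n = 4) and 1.36 ± 0.0704 times in males on PLX3397, from 1.47 to 1.66 and from 1.27 to 1.42. In females that quotient was 1.58 ± 0.0281 on control chow and 1.51 ± 0.0435 on PLX3397, from 1.54 to 1.61 and from 1.46 to 1.56. These quotients were chosen after the genes' values were seen and carry no test. Replicate 4 of the males on PLX3397 had the lowest quotient and the highest value of its group for 30 of the 40 members, and replicate 2 the lowest value for 27. Without replicate 4, 15 members fell in males, where 7.906% of all genes were called lower. Without replicate 2 of the male controls 5 members did, where 5.576% of all genes were called lower.

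**Figure D3:**
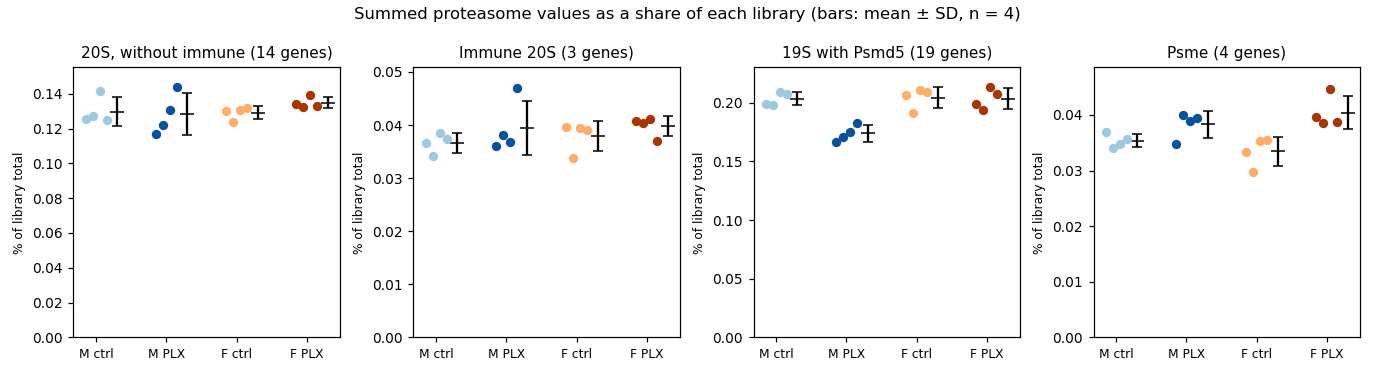
Summed values of the standard 20S core genes, the immune subunits, the 19S genes and the Psme genes as a percentage of each library's total, with the mean and SD of each group (n = 4). The 19S share of males on PLX3397 (0.166% to 0.183%) lies below that of male controls (0.198% to 0.209%), and the core share of males overlaps. In females the core and Psme shares on PLX3397 lie above those on control chow, and the 19S and immune shares overlap.

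How far the 9 calls hold depends on the scaling of the libraries. With each library set to the same total, 3 members were called lower in males (Psmc1, Psmc2 and Adrm1). That scaling moved the median of all genes from 0.02 to 0.18 and that of the members from -0.29 to -0.13, and it turned the calls over all genes from 815 higher and 1474 lower to 1348 and 917. Without the 2 libraries that stood apart in Xist and S100a8, 6 members fell in males, where 5.11% of all genes were called lower. Psmc1, Psmc2 and Adrm1 were called in all 28 alternatives, Psmd14 in 27, Psmd3 and Psmd7 in 26, Psmd1 in 24 and Psmc5 in 20.

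In the standard 20S core no gene passed in males. The median change was -0.28 in the alpha ring, -0.28 in Psmb1 to Psmb4 and -0.09 in the catalytic Psmb5 to Psmb7. With the 3 immune subunits included, the median of the 17 core genes was -0.21. Of these 17, 6 (35.3%) had an unadjusted limma p under 0.05, beside 23.8% of all genes. Single changes ran from -0.34 (Psmb2, a structural beta subunit, limma adjusted p = 0.105, and Psma6, an alpha ring subunit, adjusted p = 0.0914) to 0.09 (Psmb6). Psma1, an alpha ring subunit, had separate groups and did not pass (-0.28, adjusted p = 0.122). It was 1 of 10 members whose male groups did not overlap, all 10 lower on PLX3397, where 9.84% of all genes tested were lower without overlap and 7.71% higher. The others were Psmd6 and the called genes except Psmd11.

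None of the 3 immune catalytic subunits was called in either sex. The intervals of their changes leave room for changes, and that of Psmb10 in males for a decrease as large as some of those called. Psmb8, the counterpart of Psmb5 that cuts after large hydrophobic residues, read 6890, 6340, 7154 and 5804 in male controls and 6322, 5529, 6006 and 8946 in males on PLX3397. The treated group held both the lowest and the highest value, and the difference was 0.01, with a 95% interval of -0.26 to 0.28. In females Psmb8 read 6950, 5856, 7025 and 7387 on control chow and 7507, 7567, 7430 and 7659 on PLX3397. These groups did not overlap, like those of 5.13% of all genes with the treated group higher and 5.26% with it lower, and the difference of 0.15 (-0.11 to 0.42) did not pass (limma adjusted p = 0.615).

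Psmb9, the counterpart of Psmb6, read 3496, 3097, 3572 and 3490 in male controls and 3526, 3275, 3135 and 3800 in males on PLX3397, a difference of 0.01 (-0.25 to 0.26). In females it read 4318, 3030, 3897 and 3647 on control chow and 4070, 4188, 3580 and 3208 on PLX3397, a difference of 0.02 (-0.23 to 0.27). The groups overlapped in both sexes. Psmb10, the counterpart of Psmb7, read 4859, 4649, 4888 and 5498 in male controls and 4177, 3646, 3782 and 5863 in males on PLX3397. Replicates 1 to 3 on PLX3397 lay below the controls and replicate 4 above them, and the difference was -0.21 (-0.55 to 0.13, limma adjusted p = 0.474). In females Psmb10 read 5971, 4071, 6495 and 5053 on control chow and 5344, 5070, 6419 and 4669 on PLX3397, a difference of 0.01.

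The standard partners shared with the immune subunits only the place of replicate 4 among the treated males. Psmb5 read 2847, 3043, 2987 and 2587 in male controls and 2844, 2132, 2460 and 3470 in males on PLX3397, Psmb6 read 5369, 5088, 6363 and 4646 and then 5445, 4738, 5344 and 7480. Psmb7 read 1619, 1511, 1723 and 1750 in male controls and 1493, 1119, 1250 and 1723 on PLX3397. In all of these genes replicate 4 was the highest of the treated males. In females on control chow and on PLX3397 the values were 3401, 2573, 3665 and 3228 and then 3317, 3417, 3049 and 3421 for Psmb5, and 6009, 4877, 5293 and 5654 and then 6422, 5769, 6463 and 5433 for Psmb6. Psmb7 read 1983, 1541, 2074 and 1782 and then 1998, 1654, 2076 and 1603 in females, and none of the 3 passed in either sex.

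The ratio of an immune subunit to its standard partner within a library needs no scaling between libraries. Psmb8 against Psmb5 was a log2 ratio of 1.30 ± 0.103 (SD, n = 4) in males on PLX3397 and 1.19 ± 0.10 in male controls, a difference of 0.11 ± 0.0717 (SE, two-sided exact permutation p = 0.229). In females the ratio was 1.19 ± 0.0624 on PLX3397 and 1.09 ± 0.125 on control chow, again a difference of 0.11 ± 0.0697 (exact permutation p = 0.286). Psmb9 against Psmb6 differed by -0.08 ± 0.131 in males (exact permutation p = 0.571) and by -0.12 ± 0.103 in females (exact permutation p = 0.286). Psmb10 against Psmb7 differed by 0.05 ± 0.0698 (exact permutation p = 0.543) and by 0.02 ± 0.0719 (exact permutation p = 0.80). Over the 12 ratio tests (3 pairs, 4 comparisons, the smallest p that 4 against 4 allows being 0.0286) the adjusted p ran from 0.629 to 0.80, and all groups overlapped.

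**Figure D4:**
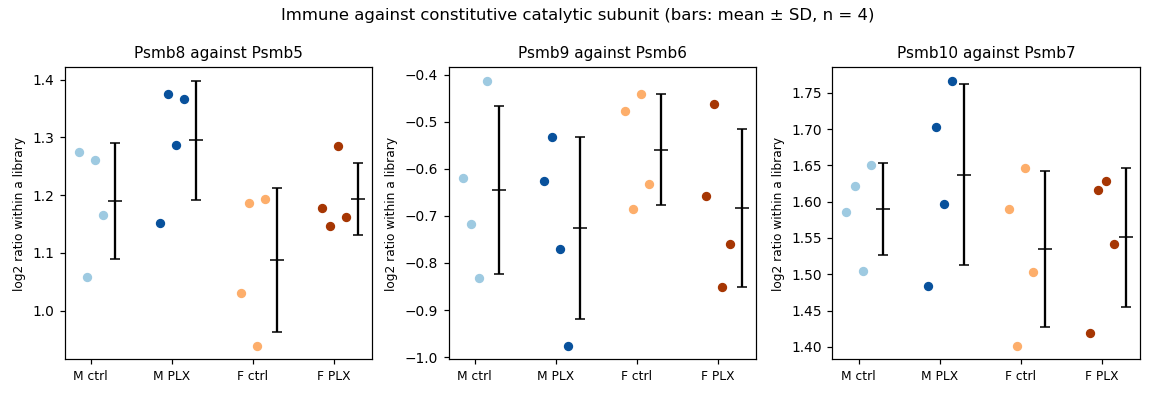
Log2 ratio of each immune catalytic subunit to the standard subunit it replaces, in every library, with the mean and SD of each group (n = 4); the axes do not start at 0. The groups overlap in each pair, and no difference passed the exact permutation test.

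Per kilobase of the principal transcript, which puts genes of unequal length on 1 scale, Psmb8 stood at 1.06 to 1.43 times Psmb5 over the 16 libraries. Psmb10 stood at 2.34 to 3.01 times Psmb7, and Psmb9 at 0.30 to 0.443 times Psmb6. With coding length in place of transcript length the ranges were 1.83 to 2.48, 2.68 to 3.45 and 0.552 to 0.816, so the order within each pair was the same on both lengths.

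Of the activators, none passed in either sex. Psme1, the alpha chain of the ATP-free cap, read 5920, 5518, 5886 and 5997 in male controls and 5276, 5613, 6015 and 6678 in males on PLX3397 (0.01, interval -0.26 to 0.28). In females it read 5980, 4092, 6764 and 5611 on control chow and 7329, 6863, 7767 and 6292 on PLX3397. The female groups overlapped, and the difference of 0.35 ± 0.129 did not pass (limma adjusted p = 0.149). Psme2, the beta chain, read 4397, 3976, 4219 and 4213 in male controls and 4101, 3649, 3881 and 5228 in males on PLX3397 (-0.01, interval -0.27 to 0.25). In females Psme2 read 4448, 3274, 4319 and 4184 on control chow and 4303, 5315, 5334 and 4951 on PLX3397 (0.30, adjusted p = 0.213). Its near copy Psme2b was counted at 1133 to 1932, so reads may be split between the 2 genes and the values of Psme2 are uncertain.

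Psme3, a nuclear cap for the core, read 3850, 3590, 3255 and 2661 in male controls and 2759, 2276, 2536 and 2501 in males on PLX3397. The groups overlapped by 1 control, and Psme3 did not pass (-0.40, limma adjusted p = 0.098). In females it read 3338, 3065, 3515 and 3292 on control chow and 4132, 2768, 4655 and 3805 on PLX3397, with wide treated values (0.19, adjusted p = 0.571). Psme4, a large single-chain activator and the lowest and most variable member (SD over the mean within groups averaging 21.1%), read 1199, 983, 777 and 1227 in male controls and 1428, 1502, 1238 and 1223 on PLX3397. Its female values were 738, 982, 964 and 1515 on control chow and 694, 1151, 1161 and 1196 on PLX3397, and neither difference passed (0.38, adjusted p = 0.323, and 0.02, adjusted p = 0.984).

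**Figure D5:**
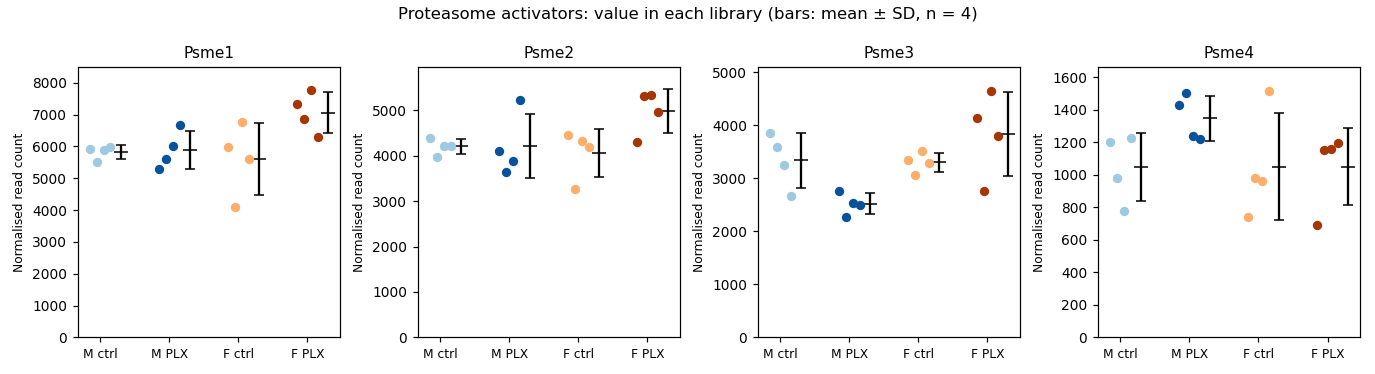
Normalised read count of the 4 Psme genes in every library, with the mean and SD of each group (n = 4) and axes from 0. Psme1 and Psme2 overlap in males, Psme3 is lowest in males on PLX3397 (2276 to 2759), and replicate 1 of the females on PLX3397 is apart in Psme4 (694).

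Set beside the rest of the list, the 3 immune and 4 activator genes had a median change of 0.01 in males and the 33 other members of -0.30, with 0 of 7 and 9 of 33 called. The first value rests on replicate 4 of the males on PLX3397: without it the medians were -0.12 and -0.40, and 6 of the 7 changes were negative, among them Psmb8 (-0.13), Psmb9 (-0.04), Psmb10 (-0.36), Psme1 (-0.05) and Psme2 (-0.12), with none called. Without replicate 2 of the male controls 6 of the 7 were negative as well (median -0.03, beside -0.30). Whether the 7 genes differ from the 33 was not tested. In females no member was called in either direction, where 2.67% of all genes were called higher and 2.67% lower. The smallest adjusted p was 0.105 (Psmd5), the median of the 40 changes was 0.05, and 3 members had an unadjusted p under 0.05, as had 17.1% of all genes. By class the female medians were 0.05 for the core with its immune genes, 0.04 for the 19S genes, -0.15 for the ATPases and 0.25 for the Psme genes. Female 19S shares of the library total overlapped (0.191% to 0.211% and 0.194% to 0.213%), as did those of the 3 immune subunits. Shares of the 4 Psme genes did not overlap (0.02971% to 0.03545% on control chow, 0.03857% to 0.04475% on PLX3397). Nor did those of the standard core genes, by a narrow gap (0.1239% to 0.1316% and 0.1325% to 0.1394%). The shares were not tested. Without replicate 4 of the female controls Psmd5 alone was called in females (adjusted p = 0.0288).

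The difference between the female and the male response was tested directly, gene by gene. No member passed, and no gene of the 19594 did (0.0% called, limma, smallest adjusted p 0.133). Without replicate 4 of the males on PLX3397, 6 genes passed, no member among them. Some other alternatives called 1 to 3 genes, with 3 without replicate 4 of the females on PLX3397, and again no member. At an unadjusted p under 0.05 there were 15 members of 40 and 2010 of all genes (10.3%), and the response was more positive in females in 39 members, with a median difference of 0.34. The smallest adjusted p of the members was 0.208, for Adrm1, whose responses differed by 0.66 ± 0.156. Psmd5, which helps to assemble the base, had the largest difference (0.94 ± 0.246, adjusted p = 0.228). It read 2183, 2430, 2584 and 2562 in male controls and 2354, 1532, 1498 and 2044 in males on PLX3397, against 1847, 1898, 2309 and 3054 and then 2774, 3801, 3181 and 3120 in females. No member's response was thus shown to differ between the sexes.

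Between the sexes on control chow no member passed (0 of 40, smallest adjusted p 0.946 for Psmd1, 1 member at an unadjusted p under 0.05, as had 5.19% of all genes), where 0.0153% of all genes were called higher in females and 0.051% lower. The median difference of the members was 0.02. Of 12 neutrophil markers 5 were called lower in females on control chow, and of 10 microglia markers none was called. On PLX3397, 10 members were higher in females than in males and none lower, where 4.28% of all genes were called higher and 1.15% lower, and 8.97% higher and 0.962% lower in the members' range. Differences were positive in 39 of 40 members, with a median of 0.34 beside -0.02 for all genes and 0.18 for genes in the range. At an unadjusted p under 0.05 there were 26 members, beside 22.0% of all genes. The groups did not overlap in 14 members, higher in females in 13 and lower in Psme4, where 6.76% and 5.36% of all genes were. This comparison and that of the males with their controls use the same 4 libraries of males on PLX3397, and they are not independent of each other. On PLX3397, 9 of 10 microglia markers were also called higher in females than in males, and 9 of 12 neutrophil markers lower. The part of these markers in the members' differences was not tested.

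The 10 genes were 8 of the 19S regulator (Adrm1, Psmc1, Psmd1, Psmd2, Psmd3, Psmd5, Psmd7 and Psmd14), the core gene Psma5 and the activator Psme3. Psmd3 differed by 0.55 (limma adjusted p = 0.00913), from 5683, 5952, 6931 and 6421 in females on PLX3397, and Adrm1 by 0.58 ± 0.111 (adjusted p = 0.00933). In each of these genes every female library on PLX3397 was above every male one. Psmd5 had the largest difference, 0.81 ± 0.174 (adjusted p = 0.0161), and Psmd14 differed by 0.61 (adjusted p = 0.0123). Psmd2 was 7564, 6523, 7714 and 7298 in female controls and 7162, 6244, 9735 and 8026 in females on PLX3397, and on PLX3397 it differed between the sexes by 0.61 (adjusted p = 0.0176) although its groups in males were not called apart.

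Psmd1 differed by 0.57 (limma adjusted p = 0.0115), Psmd7 by 0.43 (adjusted p = 0.0267) from 3380, 3545, 4345 and 3738 in females on PLX3397 and 3885, 3185, 3759 and 3618 in female controls, and Psmc1 by 0.37 (adjusted p = 0.0429). Psma5, an alpha ring subunit, read 1576 to 2203 in males and 2316 to 3248 in females on PLX3397 (0.54 ± 0.136, adjusted p = 0.0323). Psme3 differed by 0.59 ± 0.147 (adjusted p = 0.0315), with each female library above the highest male one. The ATPases Psmc2 and Psmc5, called in males, did not pass here (0.43 and 0.42, adjusted p = 0.0701 and 0.205). Without 1 library of the males on PLX3397 the count moved between 4 (replicate 2) and 19 (replicate 4), with 5 without replicate 3. In these fits 1.375%, 5.274% and 1.955% of all genes were called higher, in that order. With only the 2 groups in the fit 0 members were higher, beside 0.1327% of all genes. With equal library totals, or without the 2 libraries that stood apart, 3 members were higher, beside 1.0% and 1.456% of all genes. Equal totals turned the calls over all genes from 838 higher and 226 lower to 196 and 375. Over the 28 alternatives, Psmd3 and Adrm1 were called higher in females on PLX3397 in 27, and Psmd1, Psmd5 and Psmd14 in 24. For Psmd2 the call held in 22, for Psma5 and Psmd7 in 18, for Psme3 in 17 and for Psmc1 in 11.

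Genes around the proteasome were read from lists of the pathway. Their counts are read against the shares of all genes called, 4.16% higher and 7.52% lower in males and 2.67% each way in females. Of 14 genes for assembly of the complex and its inhibitor, 2 fell in males (14.3%, close to the 13.7% of genes in the members' range): Akirin2, which brings the complex into the nucleus (-0.69 ± 0.122, limma adjusted p = 0.00116), and Psmf1, the inhibitor PI31 (-0.56, adjusted p = 0.0312). Zfand5, a stress-induced activator, rose in females (0.39, adjusted p = 0.0268). Of 7 genes for transcriptional control of the subunits, Maff rose and Mafg fell, both small Maf partners of the factor NFE2L1, in males (3.42 and -0.67) and in females (2.54 and -0.64). Nfe2l1, which drives the subunit genes when the proteasome is short, did not pass in males (-0.33, adjusted p = 0.221) and was higher in females than in males on PLX3397 (0.66, adjusted p = 0.0256). Its relative Nfe2l2 rose in females (0.54, adjusted p = 0.00573).

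Among genes for ubiquitin and delivery of substrates, Vcp, the segregase that draws substrates to the proteasome, fell in males (-0.38, limma adjusted p = 0.0121). Rps27a, which joins ubiquitin to a ribosomal protein, rose in males (0.56, adjusted p = 0.00306). Genes of ribosomal proteins have many near copies in the genome, so reads may be shared and the value of Rps27a is uncertain. Neither gene was called in females. Of 15 genes of class I antigen processing, H2-D1 (1.31), H2-K1 (1.10), B2m (0.63) and Nlrc5 (2.40), the heavy chains, the light chain and the class I transactivator, rose in males. Tap2, Pdia3 and Canx, of the peptide transporter and the loading complex, fell (-0.47, -0.46 and -0.42). In females H2-D1 (1.26), H2-K1 (1.05) and B2m (0.83) rose. Class I chains therefore rose in both sexes while Psmb8, Psmb9, Psmb10, Psme1 and Psme2 gave no call in either. Of 17 interferon-gamma response genes, 1 rose (5.88%: Stat2, 0.67) and 3 fell (17.6%) in males (Gbp7, Igtp and Ifngr1), and Gbp7 fell in females (-1.30). The tissue-restricted subunits Psma8 and Psmb11 read 101.5 to 644.2 and 59.1 to 123.6, and none of these forms passed.

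The promoters are shown because several members moved together and NFE2L1 is the factor known to drive the subunit genes. Of the 40 genes, 34 had an entry in the RefSeq promoter table (GRCm38.p6), and the 250 bases before the start were searched on both strands. The letters TGACNNNGC of the antioxidant-type element that NFE2L1 binds were found in 5 of 34 members (14.7%: Psmb5, Psmb6, Psmc6, Psmd12 and Adrm1), beside 11.5% of 27025 genes of the table and 13.4% of the 12035 tested. The interferon-stimulated response element, read as GAAA, any 2 bases and GAAA, was in 2 (5.88%, against 3.46%), the STAT element TTCNNNGAA in 1 (2.94%, against 8.13%) and CCAAT in 13 (38.2%, against 37.5%). Each motif was counted on its own, overlaps with another included, and TTCNNNGAA reads the same on both strands. A match describes letters and is no measured site. Shown 5′ to 3′ on the gene's strand are Adrm1, called in males, Psmb5, the standard catalytic subunit, and Psmb8, its immune counterpart. Capitals mark the TGACNNNGC match in Adrm1 and Psmb5 and the TTCNNNGAA match in Psmb8, and CCAAT matches are left in lower case:
Adrm1 (chr2:180171338-180171587, plus strand, match 162 bases before the start): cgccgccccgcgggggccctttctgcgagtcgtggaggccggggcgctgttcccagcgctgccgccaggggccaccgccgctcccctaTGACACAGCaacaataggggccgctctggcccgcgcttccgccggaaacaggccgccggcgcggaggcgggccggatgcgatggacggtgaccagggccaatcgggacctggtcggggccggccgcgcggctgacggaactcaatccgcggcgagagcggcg
Psmb5 (chr14:54617996-54618245, minus strand, match 47 bases before the start): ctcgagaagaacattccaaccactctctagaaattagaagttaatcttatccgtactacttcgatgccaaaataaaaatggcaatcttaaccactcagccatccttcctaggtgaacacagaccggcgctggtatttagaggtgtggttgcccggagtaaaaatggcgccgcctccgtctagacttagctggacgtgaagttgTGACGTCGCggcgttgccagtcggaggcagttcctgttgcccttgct
Psmb8 (chr17:34197945-34198194, plus strand, match 97 bases before the start): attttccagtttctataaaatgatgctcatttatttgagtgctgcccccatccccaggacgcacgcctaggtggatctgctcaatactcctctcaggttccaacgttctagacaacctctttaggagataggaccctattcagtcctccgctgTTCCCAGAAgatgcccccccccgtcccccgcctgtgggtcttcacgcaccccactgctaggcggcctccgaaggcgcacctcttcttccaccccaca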

How the data were processed

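Sorted cortical microglia were profiled as RNA in 16 libraries. Per the labels' protocols, 500 pg of total RNA went into cDNA by the SMARTer Ultra Low Input kit and 150 pg of cDNA into Nextera XT libraries. Tools listed in the submitters' processing notes, their roles not stated, were Salmon 1.5.2, featureCounts 2.0.1, Subread, STAR 2.7.9a and bcl2fastq 2.19.1, and the build was GRCm39. The authors deposited 1 signal per gene and library, a normalised read count that is not whole, and its formula is not given in the sources used here. A count model was therefore not used, and raw read totals are not analysed here. Library totals of the normalised counts ranged from 32640000 to 44160000.

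Symbols came from an Ensembl-to-symbol table, which matched 51029 of 53850 gene IDs. Values were log2-transformed with a pseudocount of 1, and genes with at least 10 in at least 4 libraries were fitted with limma 3.58.1 in R 4.3.3 (trend, 1 mean per group, all 16 libraries, two-sided), with Benjamini-Hochberg adjustment over 19594 genes. The comparisons were PLX3397 against control in each sex, the difference between these, and females minus males on each chow. The script was tested on simulated data. Ratios within a library were compared by exact permutation in Python 3.11.15. Lengths came from GENCODE M21 (GRCm38) and promoters from RefSeq (GRCm38.p6), builds other than that of the counts, so no gene coordinates are given beyond the promoters' own.

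The members and the pathway and marker lists were chosen with earlier results of these data known. Values in every library are given for the immune subunits, their partners, the Psme genes and the 10 called members with the smallest p, and from each pathway list up to 5 called genes are named. Some genes of the ubiquitin list are not reported here, and no count is given for that list. Psmc5, Psmd11, Psma5, other members given as ranges or differences, and Pdia3, Canx and Nfe2l1 fall outside that rule and were chosen after their values were seen. Alternatives were other pseudocounts, filters, scalings, weights and fits, each library left out in turn and, added after seeing the data, the 2 libraries that stood apart left out and a correction for GC content and length.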

Additional observations from a re-analysis of the deposited data

Results flagged for a closer look

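Psme4, the single-chain activator, was flagged because 1 of its 4 libraries of females on PLX3397 stood apart: replicate 1 read 693.5 normalised counts, against 1151, 1161 and 1196 in the others. The gap took 0.91 of the group's range. In all, 92 groups of 4 libraries were examined in this way and chance flags about 1 in 20, so about 4.6 flags would be met by chance. Psme4 was called in none of the 5 comparisons under any of the 28 alternatives.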

How the results depend on the processing

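In males the 9 lower members ranged from 5 (without replicate 2 of the male controls) to 15 (without replicate 4 of the males on PLX3397) when 1 library was left out. They were 3 with equal library totals and 16 with array weights. In these fits 5.576%, 7.906%, 4.68% and 9.804% of all genes were called lower, in that order. In the comparison of the sexes on PLX3397 the 10 higher members ranged from 4 to 19 when 1 library was left out. At these ends 1.375% and 5.274% of all genes were called higher. The higher members were 5 with upper-quartile scaling, 3 with quantile normalisation and 3 with equal totals. They were 0 with only the groups compared in the fit, and 3 without the 2 libraries that stood apart. Over all genes the shares called higher were 1.352%, 1.255%, 1.0%, 0.1327% and 1.456%, in that order. In females the count ranged from 0 to 1 when 1 library was left out. The differences between responses and between the sexes on control chow gave 0 members under every alternative. Of the single-gene calls, 104 gene-by-setting results lost the threshold and 428 stayed, and none reversed. Same-numbered replicates did not deviate together (correlations from -0.045 to 0.021, the own number best in 2 of 16 pairs). The labels name no pairs, and a pairing with a weak effect could be missed in this way. With the replicate block 9 members were lower in males and 12 higher in females than in males on PLX3397, beside 7.012% and 3.573% of all genes. Quantities of reads behind each value are not given, and the median SE of a member's log2 change was 0.128, which limits what 4 libraries a group can show.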
